A study of Mus musculus with 9 samples.

Results

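The acid-sensing ion channels (ASICs) are a small gene family, and its members Asic1, Asic2, Asic3 and Asic4 were chosen by name, as 4 of the 21536 genes in the table. They were followed in 3855 neurons of 6997 cell barcodes from trigeminal ganglia, which hold the cell bodies of the sensory neurons of the face and mouth. A barcode was taken as a neuron when it had 500 to 7500 genes, a UMI of at least 3 of the 6 genes Tubb3, Scn9a, Snap25, Nefl, Nefm and Uchl1, and no UMI of Epcam. A UMI (unique molecular identifier) marks 1 captured transcript. The cells came from wild-type FVB/N mice aged 3 to 6 weeks by the labels, in 9 Dropseq runs that each pooled cells of many mice of both sexes. There was 1 group of samples and no treatment, and all runs shared the same dissociation, Percoll gradient and depletion of glia and other cells. The barcodes do not name their run, so all cells were 1 pooled sample, groups of cells were compared without a test, and no spread between mice or runs can be given.

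ASICs belong to the degenerin and epithelial sodium channel family. They are trimers of subunits with a pair of membrane-spanning stretches each, and extracellular protons open them to let sodium in. ASIC1 and ASIC3 form channels that respond to mild acid, as in inflamed or ischaemic tissue, ASIC2 joins them in mixed channels and changes their response, and ASIC4 alone gives no proton current. In sensory ganglia ASIC3 is best known from neurons of muscle and from pain on acidosis, and ASIC2 and ASIC3 have both been studied in touch.

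The shared pore and the separate identity of the genes can be seen in their coding sequences. Each line below gives 30 bases of coding sequence on the strand of the gene, 5′ to 3′, from the GENCODE M21 transcripts of the GRCm38 assembly. The capitals mark the 3 codons for glycine, alanine and serine that form the narrow filter of the pore.

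Asic1: ggattgttcatcGGGGCCAGCatcctcaca

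Asic2: ggattgttcattGGTGCTAGTatccttaca

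Asic3: ggactgtttatcGGAGCCAGCctgcttacc

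Asic4: ggcctgttcattGGGGCTAGCatcctcacc

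All 4 stretches encode the same filter, with a set of codons that differs from gene to gene. Across the whole aligned coding sequences, identity was highest between Asic1 and Asic2 at 69.3% and lowest between Asic3 and Asic4 at 64.3%. No run of 50 identical bases was shared by any pair of members in the coding sequence. In GRCm38, Asic1 lies at chr15:99670368-99701130 on the plus strand and its coding transcript has 12 exons. Asic2 covers chr11:80880169-81968457 on the minus strand, a span of 1088289 bases with 10 exons. The annotation places 6 other genes inside that span, and the sources used here do not say whether the counting used strand, so part of the UMIs of Asic2 could belong to them. Asic3 is compact, with 11 exons in the 4444 bases of chr5:24413392-24417835 on the plus strand. Asic4 lies at chr1:75450436-75474343 on the plus strand, with 10 exons. It overlaps 1 other annotated gene, Gm37264 on the minus strand, so the same doubt holds for its UMIs. The table counts whole genes from the 3′ end of transcripts, so the 1a and 1b forms of ASIC1 and the 2a and 2b forms of ASIC2 are not separated.

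The table held 30491529 UMIs, and the neurons had a median of 3014 UMIs (range 1000 to 55655). A list of 6 sensory neuron markers took no part in the choice of neurons, Prph, Isl1, Pou4f1, Avil and Scn10a among them. All 6 were detected, and 88.0% of neurons had a UMI of at least 2 of them. The share was 1.79% in glia-like barcodes and 5.54% in all barcodes outside the neurons. Glia-like barcodes were chosen for few neuron genes and were shallower than neurons, so part of this contrast may have been set by the choice. Neurons were placed in the first group whose condition they met, in the order Trpm8 (2 or more UMIs), Mrgprd (2 or more), Mrgpra3 (1 or more), Nppb (2 or more), Cd34 (1 or more), Nefh (5 or more with no Trpv1) and Calca with Trpv1 (5 or more and 1 or more). Trpm8 is the cold receptor, Mrgprd, Mrgpra3 and Nppb mark small neurons of pain and itch, Cd34 marks neurons rich in the touch channel Piezo2, Nefh is a neurofilament of large axons, and Calca and Trpv1 encode the peptide CGRP and the capsaicin receptor. The groups held 244, 379, 49, 57, 320, 450 and 916 neurons in that order, and 1440 neurons met no condition. The conditions of more than 1 group were met by 349 neurons. The neurons in no group were shallow, with a median of 1826.5 UMIs against 3406 to 5835.5 in the 7 groups. Their summed level of 6 glial markers was 8713 CPM against 2363 CPM over all neurons, and their summed level of 4 markers of central neurons was 209 CPM against 45.6 CPM. Markers of red blood cells summed to 14183 against 5989 CPM, of the anterior pituitary to 3843 against 1059 CPM, of olfactory neurons to 628 against 431 CPM, of mural cells and fibroblasts to 171 against 128 CPM and of immune cells to 26.4 against 7.31 CPM, while those of endothelium stood at 40.1 against 49.5 CPM. Among the 7 groups, the Cd34 group had the most glial signal, at 2292 CPM against 235 to 968 CPM in the others, with 2 or more glial genes in 62.5% of its neurons against 31.7% of all neurons. The Calca with Trpv1 group had markers of mural cells and fibroblasts at 348 CPM, with 2 or more of these genes in 0.109% of its neurons. Olfactory markers summed to 727, 724 and 736 CPM in the Mrgprd, Mrgpra3 and Nppb groups against 192 to 416 CPM in the other 4, where in the Mrgprd group the most frequent of the 5 genes was in 91.8% of neurons and the median gene in 2.37%. Pituitary markers stood at 901 CPM in the Cd34 group against 217 to 589 CPM in the others. Endothelial markers were also highest there, at 76.6 CPM against 7.04 to 62.7 CPM. Its neurons had 2 or more of these genes in 4.06%, against 0.752% of all neurons. Markers of red blood cells summed to 6192 CPM in the Calca with Trpv1 group against 3151 to 4084 CPM in the others. The part of such cells in the values of these groups was not tested.

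Asic3 was the most abundant member in the captured trigeminal neurons, Asic2 and Asic1 followed, and Asic4 was nearly undetected. The paper reports from in situ hybridization that Mrgprd neurons and large S100b neurons are under-represented in these data and Trpv1 neurons over-represented. Levels and shares over all neurons therefore hold for this mix of captured neurons. Levels are given as UMIs of a gene per 1000000 UMIs of the cells (CPM) with exact Poisson 95% intervals, and shares of cells with exact Clopper-Pearson 95% intervals, both in parentheses and for counting error only. Each UMI is 1 transcript whatever its length, although capture can differ between genes. Asic3 gave 2890 UMIs, a level of 138 CPM (133 to 143), and 92.3% of the 20044 genes with a UMI in neurons lay below it. Asic2 had 1034 UMIs at 49.4 CPM (46.4 to 52.5). Asic1 had 797 UMIs at 38.1 CPM (35.5 to 40.8). The intervals of these 3 levels did not overlap. Asic4 had 5 UMIs in 5 neurons, a level of 0.239 CPM (0.0776 to 0.558).

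A UMI of Asic3 was seen in 986 neurons, a share of 25.6% (24.2 to 27.0). The share was 17.4% (16.2 to 18.7) for Asic2, in 672 neurons, and 13.5% (12.4 to 14.6) for Asic1, in 520 neurons. Free RNA can place a UMI in a cell that does not express the gene, and 168 glia-like barcodes with a median of 1471 UMIs gave that background. They showed Asic1 in 1.19%, Asic3 in 0.595% and Asic2 in 0 of 168, which allows a share of up to 1.79%. In 458 haemoglobin-rich barcodes (median 1360.5 UMIs) the shares were 0.437% for Asic1, 0.218% for Asic2 and 0.655% for Asic3. To set neurons and these barcodes at 1 depth, the share expected with every cell thinned to 1000 UMIs was computed. It was 11.1% for Asic3, 4.46% for Asic2 and 3.80% for Asic1 in neurons. In glia-like barcodes it was 0.388%, 0 and 0.798%, so all 3 neuron shares lay above this background. Glia-like barcodes were chosen with at most 1 neuron gene, which can leave out those with more free neuronal RNA and lower this background. Over all 3142 barcodes outside the neurons the share at 1000 UMIs was 0.874% for Asic3, 0.498% for Asic2 and 0.999% for Asic1.

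Depth set much of the share but little of the level. Neurons were ordered by depth and cut into 4 classes of like size, and from the shallowest to the deepest class the share with Asic3 went from 12.3% to 22.3%, 27.9% and 39.8%. The level over the same classes was 132, 150, 145 and 135 CPM, with overlapping intervals. The lack of a UMI in a neuron therefore does not show that the member is absent. At least 1 UMI of Asic1, Asic2 or Asic3 was found in 1758 neurons, or 45.6% (44.0 to 47.2). Their median depth was 4839 UMIs, against 2212 UMIs in neurons with none.

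Each member had its highest level in a different group of neurons, as the plot of levels by group shows. Asic1 was highest in the Trpm8 group, Asic2 in the Mrgprd group and Asic3 in the Nefh group, and these groups stayed the highest in all 8 settings of the processing compared. In the Trpm8 group Asic1 made up 81.2% of the ASIC UMIs. In the Mrgprd group Asic2 made up 72.2%. In the Nefh group Asic3 made up 82.7%, and in the Calca with Trpv1 group 75.3%. The Cd34 group had 46.9% Asic2, 36.5% Asic3 and 16.6% Asic1, but 153 of its 171 Asic3 UMIs were in 21 neurons with a lower level of Cd34 than the neurons without Asic3.

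**Figure D1:**
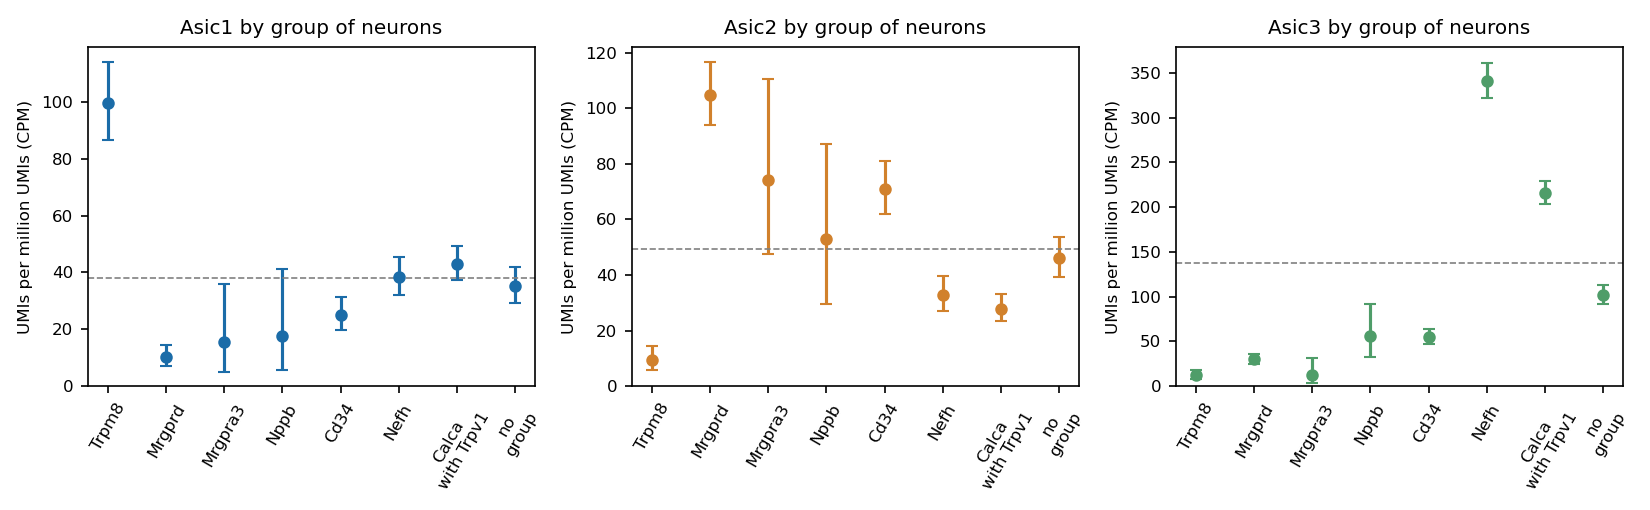
Level of Asic1, Asic2 and Asic3 (UMIs per 1000000 UMIs, linear axis from 0) in each group of neurons, with points for the pooled level, bars for the exact Poisson 95% interval and a dashed line for the level over all neurons. Asic1 stands at 99.5 CPM in the Trpm8 group, Asic2 at 105 CPM in the Mrgprd group and Asic3 at 341 CPM in the Nefh group.

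**Figure D2:**
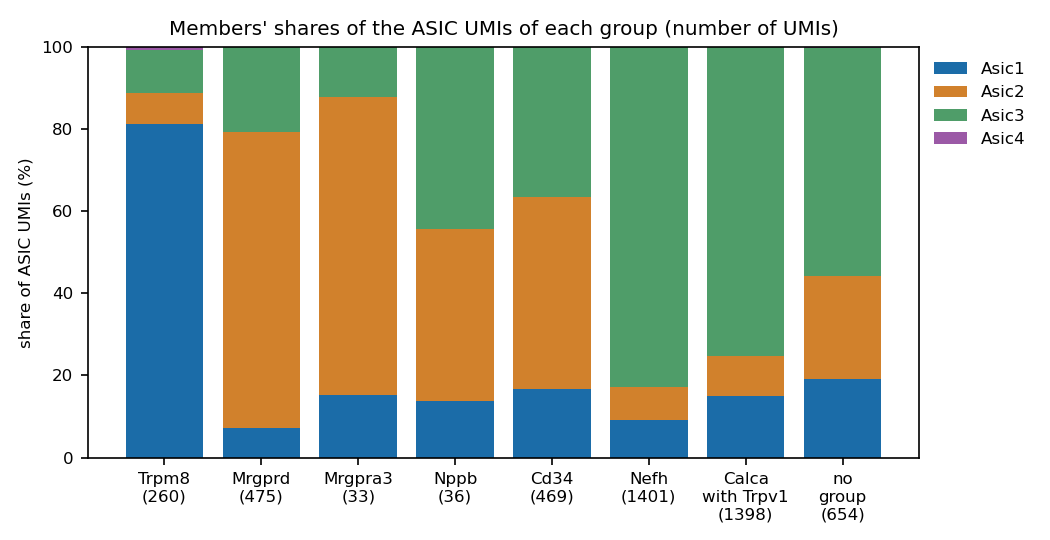
Share of each member among the ASIC UMIs of each group of neurons (percent), with the number of ASIC UMIs in brackets under the group. Asic1 fills 81.2% of the bar of the Trpm8 group, Asic2 72.2% of the Mrgprd bar and Asic3 82.7% of the Nefh bar, while the Mrgpra3 and Nppb bars rest on 33 and 36 UMIs and the Asic3 part of the Cd34 bar rests mostly on 21 neurons.

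To read these levels against other genes, each group was set against all other neurons for the 10772 genes with 100 or more UMIs, and a gene was counted as higher or lower past a 2-fold difference in level. Asic1, Asic2 and Asic3 reached that number of UMIs and Asic4 did not. In the Trpm8 group 1 of the 3 members was higher, where 3.19% of all genes were, and 2 were lower, where 13.9% were. The same numbers of members, 1 and 2, held in the Mrgprd group against 5.15% and 15.1% of genes. In the Mrgpra3 and Nppb groups no member was higher (5.21% and 5.70% of genes) and 2 were lower (13.6% and 12.9%). In both groups these were Asic1, with 5 UMIs, and Asic3, and the interval of the Asic1 ratio in the Nppb group held 1 (0.459, 0.149 to 1.08). In the Cd34 group 1 was lower and none higher, against 10.2% and 3.62% of genes. In the Nefh group 1 was higher and none lower, against 4.52% and 8.37%. In the Calca with Trpv1 group 1 was lower and none higher, against 7.81% and 4.50%. The lower member was Asic2, at the limit with a ratio of 0.499 (0.414 to 0.599). Asic3 stayed just within it at 1.89 (1.75 to 2.04), so these calls hang on the 2-fold limit. None passed in the neurons of no group, where 2.98% of genes were higher and 0.576% lower. The log2 difference of the median gene was between -0.12 and 0.00 in these comparisons, so the scaling shifted the members little.

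Asic1, which encodes a subunit able to form proton-gated channels by itself, was concentrated in the neurons with Trpm8. There it had 211 UMIs at 99.5 CPM (86.5 to 114), 3.19-fold the level of all other neurons. A UMI was found in 112 of the 244 neurons, a share of 45.9% (39.5 to 52.4), or 9.37% at 1000 UMIs. If these UMIs had been spread evenly over the depth of the group, 115 neurons would have shown one. The UMIs were thus spread nearly evenly over the group.

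The Calca with Trpv1 group came next for Asic1 at 42.9 CPM (37.3 to 49.1), followed by the Nefh group at 38.3 CPM (32.0 to 45.4) and the neurons of no group at 35.1 CPM (29.2 to 41.8). These 3 did not differ beyond their intervals, and the ratio of Nefh to Calca with Trpv1, 0.892, turned to 1.27 without neurons that had markers of other cells. The Cd34 group had 25.2 CPM (19.9 to 31.5), and the Trpm8 level was 3.95-fold higher (3.03 to 5.19). The Nppb and Mrgpra3 groups had 5 UMIs each, at 17.6 CPM (5.72 to 41.1) and 15.5 CPM (5.02 to 36.1), too few to place them in the order, and none of these UMIs was in a neuron that met the condition of 1 group only. The Mrgprd group was lowest at 10.4 CPM (7.20 to 14.5), a level 9.57-fold (6.64 to 14.2) below that of the Trpm8 group. In neurons that met the condition of 1 group only, the levels were 2.5 CPM in the Mrgprd group and 107 CPM in the Trpm8 group, and under 2 of the 8 settings the Nppb or the Mrgpra3 group was lowest in place of Mrgprd. In 318 Mrgprd neurons without Trpv1 the level was 4.89 CPM, and in 61 with it 26.9 CPM, a ratio of 5.49 (2.60 to 12.2). The 22 UMIs with Trpv1 were in 9 neurons, and 2 of these held at least 50% of them, which the interval does not allow for. Of the 34 UMIs of the group, 24 were in the 17 neurons with 2 or more UMIs of Asic3 described below. At 1000 UMIs the share without Trpv1 was 0.546%, between the 0.355% of haemoglobin-rich and the 0.798% of glia-like barcodes, each from 2 UMIs. The level without Trpv1 was thus not told apart from background. The neurons with Trpv1 were deeper, with a median of 12141 UMIs against 4887.5.

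Within the Trpm8 group, Asic1 was at 101 CPM (88.1 to 116) in 219 neurons with 2 or more UMIs of Nefh and at 54.9 CPM (17.8 to 128) in 25 with fewer. The ratio of 1.85 had an interval from 0.779 to 5.75, so a difference was not detectable at this depth. Asic2 and Asic3 were both low in the Trpm8 neurons, with 20 UMIs at 9.43 CPM (5.76 to 14.6) and 27 UMIs at 12.7 CPM (8.39 to 18.5). Asic2 was 5.72-fold and Asic3 12.0-fold lower there than in the other neurons.

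Asic2, the subunit that changes the response of mixed channels, ran opposite to Asic1 across the groups. It had 343 UMIs in the Mrgprd group at 105 CPM (94.0 to 117), 2.68-fold the level of the other neurons. A UMI was found in 173 of the 379 neurons, a share of 45.6% (40.6 to 50.8), or 8.92% at 1000 UMIs. An even spread over depth would give 184 neurons. The Mrgpra3 group had 24 UMIs at 74.3 CPM (47.6 to 110), which did not differ from the Mrgprd level beyond counting error (ratio of Mrgprd to Mrgpra3 1.41, 0.933 to 2.23). Without neurons that had a UMI of markers of other cells, the Mrgpra3 level was 30.4 CPM. The Cd34 group had 71.1 CPM (62.0 to 81.1), 1.47-fold (1.24 to 1.76) below the Mrgprd group.

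The levels of Asic2 in the Cd34, Mrgpra3 and Nppb groups did not differ beyond their intervals, with 15 UMIs at 52.8 CPM (29.6 to 87.1) in the last. The neurons of no group had 46.0 CPM (39.3 to 53.6). The Nefh group, at 33.0 CPM (27.2 to 39.7), and the Calca with Trpv1 group, at 27.9 CPM (23.4 to 33.0), were alike within counting error, with a ratio of 1.18 (0.911 to 1.53). The Trpm8 group was lowest, 11.1-fold (7.09 to 18.4) below the Mrgprd group. In the Cd34 group 40.6% of neurons (35.2 to 46.2) had a UMI of Asic2, 130 where an even spread would give 131. In contrast to Asic1, the level of Asic2 in Mrgprd neurons with Trpv1 (87.9 CPM) and without (111 CPM) gave a ratio of 0.795 with an interval across 1 (0.604 to 1.03).

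Asic3, the subunit linked to acid-evoked pain in muscle and to touch, was highest in large-axon neurons and second in peptidergic ones. In the Nefh group it had 1158 UMIs at 341 CPM (322 to 361), 3.45-fold the level of the other neurons. The share was 54.4% (49.7 to 59.1), or 24.9% at 1000 UMIs, and 88 neurons had 5 or more UMIs. The highest count in 1 neuron was 28. The Calca with Trpv1 group had 1053 UMIs at 216 CPM (203 to 230) and a share of 45.4% (42.2 to 48.7), or 17.6% at 1000 UMIs. The Nefh level was 1.58-fold (1.45 to 1.72) that of the Calca with Trpv1 group.

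The neurons of no group had Asic3 at 102 CPM (91.7 to 113), below both. The Cd34 group had 55.2 CPM (47.3 to 64.2), and the Nppb group 56.3 CPM (32.2 to 91.5), of which 14 of 16 UMIs were in 1 neuron. As a mean over neurons the Nppb level was 20.1 CPM, and it was 0 both in neurons that met the condition of 1 group only and without neurons that had markers of other cells. The Mrgprd group was at 30.0 CPM (24.3 to 36.5). The Trpm8 group at 12.7 CPM and the Mrgpra3 group, with 4 UMIs at 12.4 CPM (3.37 to 31.7), were lowest as deposited and did not differ, while under the 2 settings that left the Nppb group at 0 that group was lowest. In Trpm8 neurons that met no other condition Asic3 was at 5.94 CPM. From the Nefh group to the Trpm8 group the level fell 26.8-fold (18.3 to 40.8).

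**Figure D3:**
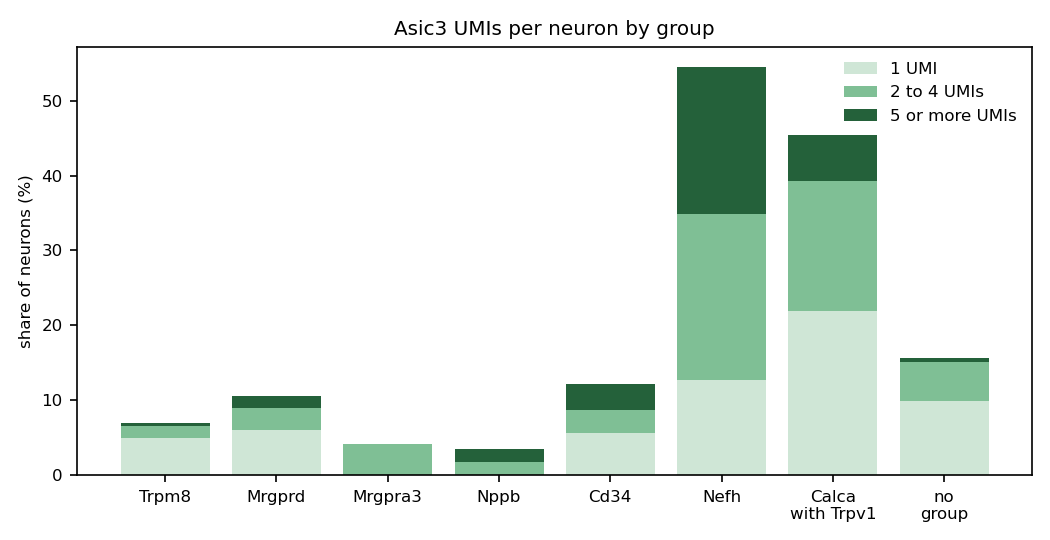
Share of neurons (percent, axis from 0) with 1 UMI, with 2 to 4 UMIs and with 5 or more UMIs of Asic3 in each group of neurons, stacked so that the whole bar is the share with any. The Nefh and Calca with Trpv1 bars reach 54.4% and 45.4%, and all others stay at or below 15.6%.

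Over all neurons Asic3 was seen in 986 where an even spread over depth would give 1594. In the Nefh group 245 neurons showed Asic3 where 327 would, and in the Calca with Trpv1 group 416 where 518 would. Among groups of over 100 neurons the ratio of neurons seen to neurons at even spread was lowest in the Cd34 group, at 0.348, with 39 neurons where 112 would be reached. There 6 neurons held 50% of the UMIs. The 21 neurons of the Cd34 group with 2 or more UMIs of Asic3 had a median of 15719 UMIs, against 5537 in the 281 with none. Their level of Nefh was 3427 CPM against 285, of Calca 2048 against 77.0, and of the glial and large-neuron gene S100b 1628 against 17.6. Their level of Cd34 was 91.8 CPM against 370, that of Tac1, a tachykinin gene, 349 against 654, and that of Fam19a4, a secreted protein of low-threshold touch neurons, 21 against 453. With 2 or more UMIs of Cd34 required, the level of Asic3 in the group was 16.7 CPM, and in neurons that met the condition of no other group 16.5 CPM.

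In the Mrgprd group, the 17 neurons with 2 or more UMIs of Asic3 had a median of 10512 UMIs, against 5121 in the 339 with none. In them Calca was at 2572 CPM against 454, Tac1 at 2241 against 164, Nefh at 366 against 282, and the growth factor receptor Gfra3 at 261 against 9.59. The level of Mrgprd itself was 422 CPM against 714. Asic1 was at 104 CPM in these 17 neurons and at 1.42 CPM in the 339. In neurons of the group that met no other condition, Asic3 was at 18.1 CPM and Asic1 at 2.5 CPM. Whether such neurons are doublets was not tested.

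Within the Nefh group, Asic3 was higher in neurons that also had Calca. In 89 neurons with 5 or more UMIs of Calca the level was 426 CPM (385 to 470), and in 361 with fewer it was 309 CPM (288 to 332). The ratio was 1.38 (1.21 to 1.56), and the shares at 1000 UMIs were 33.0% and 22.9%. The median depths were 6021 and 3789 UMIs. Asic2 was higher in the same neurons, at 46.6 against 27.9 CPM (ratio 1.67, 1.11 to 2.48). Asic1, at 31.4 against 40.8 CPM, gave a ratio of 0.769 with an interval across 1 (0.490 to 1.17).

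Ntrk2, the receptor of brain-derived neurotrophic factor and a marker of touch neurons, divided the Nefh group the other way. All 3 members were lower in the 133 neurons with a UMI of Ntrk2 than in the 317 without. Asic1 was at 19.4 against 50.6 CPM (ratio 0.382, 0.239 to 0.592), Asic2 at 23.1 against 39.4 CPM (0.585, 0.374 to 0.896) and Asic3 at 261 against 393 CPM (0.662, 0.583 to 0.752). The shares of Asic3 at 1000 UMIs were 18.3% and 27.6%. The neurons with Ntrk2 had a median of 5147 UMIs against 3613, and the part of depth in this order was not tested.

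The Calca with Trpv1 group was divided by Trpa1, the irritant receptor, and by Kit, the receptor of stem cell factor. Asic1 was at 60.9 CPM (52.0 to 70.9) in 437 neurons with Trpa1 and at 20.4 CPM (14.8 to 27.3) in 479 without, a ratio of 2.99 (2.13 to 4.27). Asic3 went the opposite way, at 151 CPM (136 to 166) with Trpa1 and 298 CPM (276 to 322) without, a ratio of 0.505 (0.445 to 0.572). For Kit the order was turned round, with Asic1 at 20.6 CPM in 358 neurons with it and 65.9 CPM in 558 without (ratio 0.313, 0.224 to 0.432), and Asic3 at 247 and 184 CPM (1.35, 1.19 to 1.52). Asic2 differed with neither gene beyond counting error, with ratios of 0.774 (0.545 to 1.10) for Trpa1 and 0.837 (0.588 to 1.19) for Kit. The neurons with Trpa1 had a median of 4319 UMIs against 3091, and those with Kit 4734.5 against 2990.5, and the part of depth was not tested.

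Taking both genes together widened the range. Asic1 was at 86.8 CPM (72.1 to 104) in 279 neurons with Trpa1 and no Kit. It was at 7.62 CPM (3.48 to 14.5) in 200 neurons with Kit and no Trpa1. The other combinations lay between, at 32.5 CPM with both genes and 35.7 CPM with neither, where the median depths were 6504.5 and 2585 UMIs. Asic3 was at 117 CPM (99.9 to 136) with Trpa1 alone and at 313 CPM (282 to 347) with Kit alone. The Asic1 level with Trpa1 alone had an interval that overlapped that of the Trpm8 group. At 1000 UMIs the share with Asic1 was 7.76% with Trpa1 alone and 0.648% with Kit alone, which also lay between the shares of haemoglobin-rich and glia-like barcodes and was not told apart from background.

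**Figure D4:**
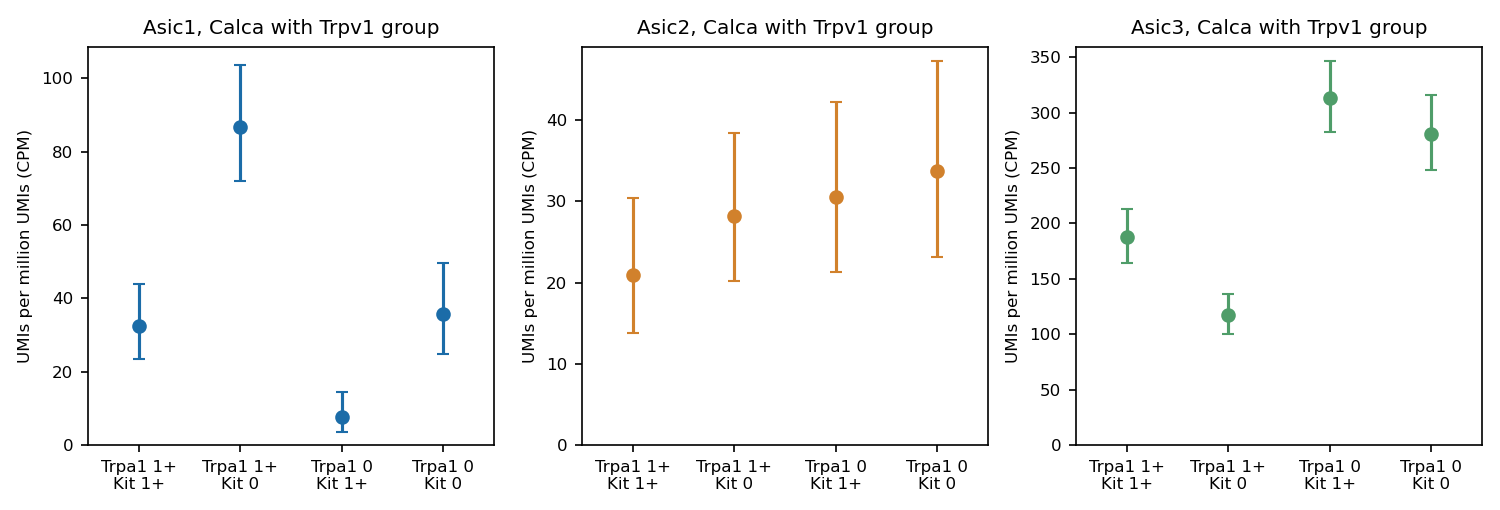
Level of Asic1, Asic2 and Asic3 (UMIs per 1000000 UMIs, axis from 0) in neurons of the Calca with Trpv1 group divided by UMIs of Trpa1 and Kit, with exact Poisson 95% intervals. Asic1 is highest at 86.8 CPM where Trpa1 is present without Kit, Asic3 is highest at 313 CPM where Kit is present without Trpa1, and the 4 intervals of Asic2 overlap.

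Across all neurons, divided only by Calca (5 or more UMIs), Nefh (5 or more) and Trpv1 (1 or more), the level of Asic3 followed Calca. It was between 156 and 274 CPM in all 4 combinations with Calca. Without Calca it was 159 CPM (148 to 170) in 574 neurons with Nefh and no Trpv1, and 25.7 to 47.3 CPM in the other 3 combinations. Asic1 was highest, at 67.4 CPM, in both combinations with Nefh and Trpv1, whether Calca was at 5 or more (55.4 to 81.1) or below (49.5 to 89.6). Asic2 ranged from 31.6 CPM with Calca and Trpv1 but no Nefh to 74.9 CPM with Calca and Nefh but no Trpv1. In each of the 4 pairs that differ only by Trpv1, Asic2 was lower with Trpv1 than without, and the intervals were apart in the 2 pairs with Calca.

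Few neurons showed more than 1 member. Of the 1758 neurons with a member, 1384 had 1, 328 had 2 and 46 had all of Asic1, Asic2 and Asic3. Asic1 and Asic2 were seen together in 116 neurons, 22.3% of those with Asic1 and 17.3% of those with Asic2. Independence within each of the 3 classes of depth would give 125, and within groups and depth 105. Asic1 and Asic3 shared 170 neurons, with 160 and 165 expected. Asic2 and Asic3 shared 180 neurons, below the 210 expected within depth alone and near the 183 expected once groups were also held. In the Calca with Trpv1 group, 55 neurons had both Asic1 and Asic3 where 70.3 were expected. In the Mrgprd group, 13 had both where 2.28 were expected.

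Asic4 was found mainly outside the neurons. Of its 61 UMIs, 5 were in neurons and 56 in 50 other barcodes, of which 47 had a UMI of the epithelial gene Epcam and 30 had 10% or more of their UMIs from pituitary hormone genes. Its share was 0.130% in neurons and 0 of 168 in glia-like barcodes. In 107 barcodes led by Prl, the prolactin gene, Asic4 was at 53.0 CPM (27.4 to 92.5) and in 10.3% (5.24 to 17.6), or 5.28% at 1000 UMIs. In 546 barcodes led by Gh, the growth hormone gene, it was at 12.4 CPM (7.49 to 19.4) and in 3.30% (1.97 to 5.16). The share in Prl-led barcodes, with a median of 1772 UMIs, lay far above that of neurons with a median of 3014. In barcodes outside the neurons and without Epcam, 3 of 2044 had a UMI.

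Asic1 was also seen in Gh-led barcodes, in 4.95% (3.28 to 7.11) with a median of 2072 UMIs and in 1.64% at 1000 UMIs. Asic2 and Asic3 were each in fewer than 1% of the Gh-led barcodes and of the Prl-led ones. Barcodes over the limit of 7500 genes numbered 40, with a median of 64713.5 UMIs. They held 574 of the 684 UMIs of Asic3 outside the neurons, at 194 CPM (178 to 210), and no UMI of Asic4. The deepest barcode, with 190815 UMIs, had 111 UMIs of Asic3, 19 of Asic1 and none of Asic2.

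**Figure D5:**
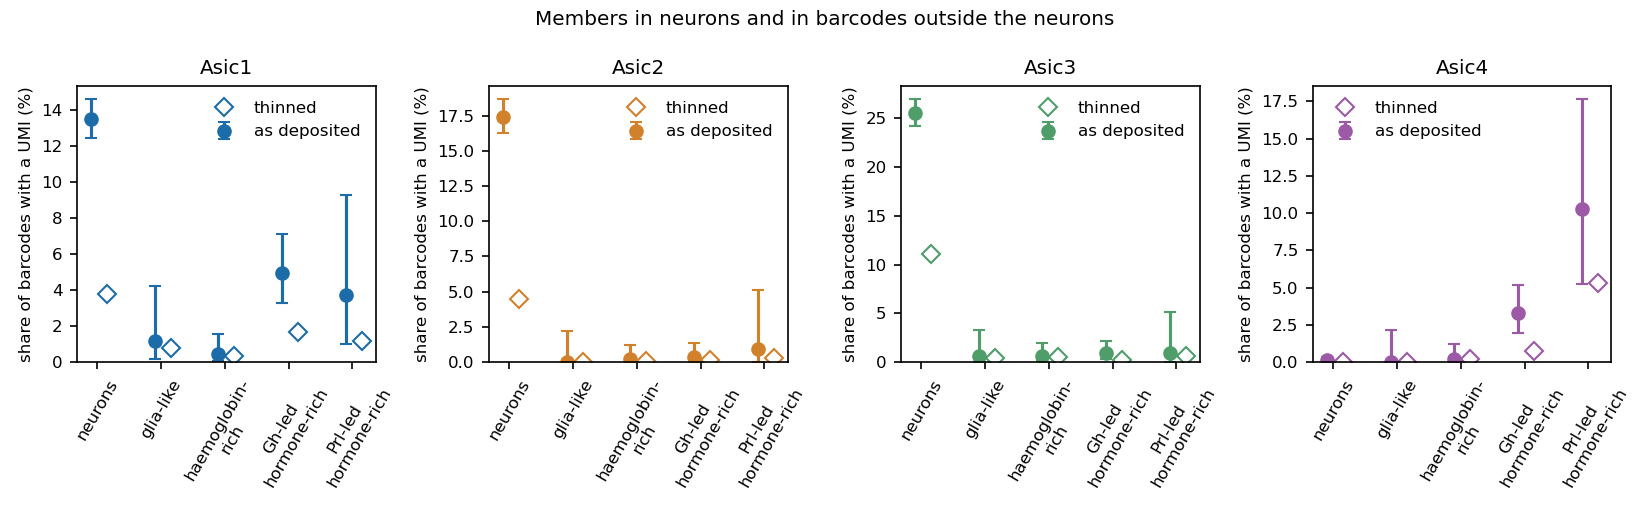
Share of barcodes (percent, axis from 0, scale differing between panels) with a UMI of each member in neurons and in glia-like, haemoglobin-rich, Gh-led and Prl-led barcodes, as deposited (filled circles with exact 95% intervals) and at 1000 UMIs (open diamonds). Asic2 and Asic3 stand at 17.4% and 25.6% in neurons and under 1% elsewhere, whereas Asic4 is at 0.130% in neurons and 10.3% in Prl-led barcodes.

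The relatives of the ASICs among the epithelial sodium channels were nearly undetected in neurons. Scnn1a had 7 UMIs, and Scnn1b and Scnn1g had 2 each, so none had the 100 UMIs needed for a comparison between groups. Asic5 was not analysed here. Of 11 other channels and receptors that respond to protons, 5 had 100 UMIs. In the Calca with Trpv1 group 3 of the 5 were higher, where 4.50% of all genes were, and 1 was lower, where 7.81% were. Trpv1 defined the group. Kcnk3, a background potassium channel closed by acid, was at 81.1 CPM there against 15 CPM in the other neurons. P2rx3, a receptor for ATP, was lower there at 14.0 against 34.6 CPM, and it was higher in the Mrgprd group at 84.1 against 19.8 CPM.

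In the Nefh group, where Asic3 was highest, none of the 5 was higher and 3 were lower (4.52% and 8.37% of all genes), among them Trpv1 by the rule of the group and Kcnk3 at 13.8 CPM. In the Trpm8 group 1 of the 5 was lower (13.9% of all genes), P2rx3 at 2.83 CPM, and none was higher (3.19%). In the Mrgprd group 1 was higher (5.15% of all genes) and 3 were lower (15.1%). In the Cd34 group 3 were lower (10.2%) and none higher (3.62%). The Mrgpra3 group had 2 lower (13.6%) and none higher (5.21%). The Nppb group had 1 higher (5.70%) and 2 lower (12.9%), and the neurons of no group had neither (2.98% and 0.576%). Gpr132 and Otop1 had no UMI in neurons.

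Of 7 proteins known to bind ASICs, 6 had 100 UMIs. From 0 to 2 of the 6 were higher in a group and from 0 to 2 lower, where 2.98% to 5.70% of all genes were higher and 0.576% to 15.1% lower. In each of the 7 groups 1 of the lower binders was Stoml3, which reached 100 UMIs only through the neurons of no group. S100a10, an annexin partner, was at 1552 CPM and in 86.9% of neurons, and it was 2-fold or more higher in the Cd34 group at 2751 CPM. Stoml1, a stomatin relative, was at 121 CPM over all neurons and between 92.8 and 182 CPM in every group. Pick1, a scaffold protein that binds ASIC1 and ASIC2, was the most even, at 60.3 CPM over all neurons and between 55.6 and 66.6 CPM in every group. Lin7b, a scaffold that binds ASIC3, was higher in the Nefh group at 88.6 CPM against 28.2 CPM in the other neurons. It was lower in the Mrgprd and Mrgpra3 groups, at 15 and 6.19 CPM. Stoml3, a stomatin relative of touch neurons, had 511 of its 591 UMIs in the neurons of no group, and it also stands on the list of olfactory markers used here.

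Genes with a pattern like that of a member were ranked by Pearson's r of log2(CPM + 1) over the 8 groups, the neurons of no group included, among 9312 genes with 200 or more UMIs. With 8 points that share depth and cells, r is a description only. For Asic1 the first 5 were Smpd1 (0.967), the acid sphingomyelinase, then Mipol1, Inpp5j, Itm2c and Selm (0.957). For Asic2 the first was Kcnd1 (0.972), a potassium channel of the A type, and Pdlim1, Nipal3 and Srp14 (0.958) were also among the first 5. For Asic3 they were Chp2 (0.952), a calcium-binding partner of sodium-proton exchangers, then Herc3, Prokr2, Sec11c and the glutamate receptor Grm4 (0.921). Chp2 was at 100.1 CPM in the Nefh group, 61.8 CPM in the Calca with Trpv1 group, 29.5 CPM in the neurons of no group and 0 to 17.1 CPM in the other 5 groups. Over the same 8 groups, r between Asic1 and Asic2 was -0.95, between Asic1 and Asic3 0.15 and between Asic2 and Asic3 -0.04.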

How the data were processed

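The authors deposited 1 table of counts, the UMIs of each gene in each barcode, with no normalization. Per the labels, glia were depleted before Dropseq. The submitters' processing notes name bcl2fastq 2.17, STAR 2.5.3a, Seurat 1.4.0.16 and the build mm10. The use of strand in counting is not given in the sources used here. All 9 runs entered as 1 pooled sample. Among the barcodes, 6 stood in the table under 12 column names that differ by a suffix, and each column was kept as a cell. Doublets were neither called nor removed.

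Counts were summed over cells and divided by their total UMIs. Python 3.11.15 with numpy 2.4.6, scipy 1.17.1 and Biopython 1.88 was used. Intervals are exact at 95% (Poisson, Clopper-Pearson, and conditional for ratios). The share at 1000 UMIs is the hypergeometric expectation, with no random draw, and every barcode had at least 1000. A count of 0 was given a limit of 3 counts. Glia-like barcodes had 200 or more genes, at most 1 neuron gene and 3 or more of 6 glial markers, Mbp, Fabp7, Sox10 and Pmp22 among them, and haemoglobin-rich ones 10% of UMIs from haemoglobin genes. The expected number of neurons at even spread applies the group's CPM to each neuron's depth, and expected pairs use 3 classes of depth. The counting steps were tested on simulated data. The genes named are the members, 3 lists (channel relatives, proton-responsive proteins, ASIC binders) and, for each member with 200 UMIs, the 5 genes of highest r. Other genes named inside groups were chosen after values were seen. Some genes of these lists are not reported here by name. The members and lists were chosen with earlier results of these data known. Alternatives changed the limits on neurons, the weighting, the thresholds of the groups and the UMIs required.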

Additional observations from a re-analysis of the deposited data

How the results depend on the processing

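The level and share of each member were recomputed under alternative settings, as was the ratio of the Nefh to the Calca with Trpv1 group. Of the 76 values, 56 moved by less than counting error, 20 moved by more and 0 reversed. A ratio counts as reversed only if its main interval leaves out 1, so only the Asic3 ratio could reverse, and it stayed above 1. Levels and shares have no side to change. The Nefh and Calca with Trpv1 groups come last and exclude each other by Trpv1, so requiring 1 matching group could not change their ratios. These unchanged ratios are counted in the 56. Of 168 levels of single groups, chosen for this after the data were seen, 20 moved, and a level cannot reverse. Shares depend most on depth and on the UMIs required. With 2 or more UMIs they were 4.10% for Asic1, 4.98% for Asic2, 13.8% for Asic3 and 0 for Asic4, and at 1000 UMIs 3.80%, 4.46%, 11.1% and 0.0298%. In the 3412 neurons with 900 or more genes they were 14.7%, 19.3% and 27.3% for Asic1, Asic2 and Asic3. In the 2263 neurons without a UMI of markers of other cells (Omp, Zic1, Barhl1 and Mbp among them), the shares of Asic1 and Asic2 were 11.3% and 13.4%, the level of Asic2 was 44.8 CPM, and the ratio of Nefh to Calca with Trpv1 rose to 1.27 for Asic1, from 0.892, and to 1.91 for Asic3, from 1.58. The Asic1 ratio was 1.19 as a mean over neurons. Its main interval held 1 (0.711 to 1.12), and its side of 1 changed under these 2 settings. With mitochondrial shares under 5% Asic3 was at 128 CPM and its ratio was 1.43, and with 10 or more UMIs of Nefh and of Calca its ratio was 1.72. The causes of these shifts were not tested.

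In neurons that met the condition of 1 group only, Asic1 was 0 in the Mrgpra3 and Nppb groups and Asic3 was 0 in the Nppb group, so the low values of these small groups rest on few cells. The split by Trpa1 and Kit together, the neurons with 2 or more UMIs of Asic3 and the barcodes led by 1 hormone were also chosen after the data were seen. No paired analysis was possible because the barcodes carry no run number. No run could be left out for the same reason. The Mrgpra3 and Nppb groups are limited by their 49 and 57 neurons, and Asic4 by its 5 UMIs in neurons. A neuron without a UMI may still express a member.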
